A study of Mus musculus with 2 samples.

Results

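Rod photoreceptors of the mouse store their DNA in an unusual way. In most nuclei dense heterochromatin lies against the nuclear envelope, while in adult mouse rods it is gathered in the centre of the nucleus and active chromatin faces the envelope, an arrangement called inverted. Heterochromatin is built on methylated histone H3 tails that are bound by the heterochromatin protein 1 (HP1) family, is compacted by linker histones, and in many places carries the replication-independent histone H3.3. The data described here are the levels of 9 genes for proteins of these layers, out of 31053 genes in the expression matrix. They are the HP1 genes Cbx1, Cbx3 and Cbx5, the HP1 partner Trim28 (KAP1), the linker histone genes Hist1h1c and H1f0, the H3.3 genes H3f3a and H3f3b, and Casz1, a zinc finger transcription factor that is needed for the inverted arrangement of rod chromatin. The members were found in the matrix by their symbols, and all 9 are in it.

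The study asked how the nuclear envelope proteins lamin A and Lbr, which tether heterochromatin, affect expression in rods that normally lack these tethers. Wild-type neonatal mouse retinas were electroporated with the plasmid pCIG2, which carries an EGFP reporter behind an internal ribosome entry site, either empty (control) or with lamin A or Lbr. Viable fluorescent cells were sorted from adult retinas, stained with 1 of 3 lipid-anchored oligonucleotide tags (MULTI-seq), pooled and run once on the 10x Genomics Chromium platform. All groups share the electroporation, the vector and the reporter. The strain, the number of animals behind a tag and the promoter of the plasmid are not given in the sources used here, and EGFP marks a cell that took up the plasmid, of whatever type.

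Which plasmid a tag stands for is not stated in the labels or files, and the pools are called tag 1, tag 2 and tag 3. Each tag is 1 pool of cells with no replicate. No test between tags was therefore possible, and every interval below covers the counting error of unique molecular identifiers (UMIs) only, not the spread between animals. Of 834 barcodes with 2487110 UMIs, 645 were also in the tag library and 621 were called to a tag. Clustering without the 9 genes named 678 barcodes as rod-like, of which 184 (tag 1), 128 (tag 2) and 20 (tag 3) passed the limits on genes and mitochondrial UMIs and the doublet filter. These 332 rods held 545718, 331067 and 54684 UMIs per tag, with medians of 2859, 2620.5 and 2573.5 per rod, all 15 rod markers had UMIs in every tag, and no barcode was shared between tags. Of the 834 barcodes, 156 were not rod-like by their markers. A median of 10.8%, 14.3% and 11.1% of a rod's UMIs were mitochondrial in tags 1, 2 and 3. Markers of Müller glia summed to 1015, 743 and 1207 CPM (UMIs of a gene or list per 1000000 UMIs) in these rods, with 9, 6 and 3 of 13 markers present, and Slc1a3, Car14 and Dkk3 were at 0 in every tag. Cone markers summed to 550, 63.4 and 1335 CPM, with 6, 3 and 2 of 12 present and Opn1mw and Pde6c at 0 throughout, and erythrocyte markers to 1631, 148 and 36.6 CPM, with 2, 2 and 1 of 6 present and Hba-a1 and Hba-a2 at 0. Bipolar markers summed to 109.9, 33.2 and 109.7 CPM, with 4, 3 and 1 of 14 present. The rod markers summed to 123300, 138470 and 99316 CPM, lowest in tag 3. Of 13 microglial markers, 1 was present in tags 1 and 2, at 12.8 and 6.04 CPM, and 0 in tag 3. The part of these cells and of the mitochondrial share in the differences between tags was not tested.

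Several of the 9 genes belong to families with near copies, so their positions and 3′ ends were examined first, because the assay reads the 3′ ends of transcripts. All positions are in GRCm38 (mm10). The HP1 genes lie apart, Cbx1 (ENSMUSG00000018666) at chr11:96789127-96808640, Cbx3 (ENSMUSG00000029836) at chr6:51470360-51483704 and Cbx5 (ENSMUSG00000009575) at chr15:103191544-103239816. Trim28 (ENSMUSG00000005566) is at chr7:12999114-13031035 and Casz1 (ENSMUSG00000028977) at chr4:148804429-148954889. The linker histone genes have a single exon each, Hist1h1c (ENSMUSG00000036181) at chr13:23738808-23740367 and H1f0 (ENSMUSG00000096210) at chr15:79028450-79030504. The H3.3 genes are on different chromosomes, H3f3a (ENSMUSG00000060743) at chr1:180800832-180813943 and H3f3b (ENSMUSG00000016559) at chr11:116021912-116027962. In the last 500 bases of the principal annotated transcript of each member, 0 of 441 stretches of 60 bases occurred in a transcript of any other annotated gene. The transcripts used for Cbx1 and H3f3b had no polyadenylation signal AATAAA in their last 50 bases. For them the stretch searched may not be the 3′ end that the assay reads. Trim28, H1f0, Casz1 and H3f3a overlap genes on the opposite strand that are also in the matrix. If strand was not used in counting, reads of such pairs cannot be told apart. The antisense gene H3f3aos had 5 UMIs, all in 1 barcode.

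H3f3a and H3f3b are shown because both encode histone H3.3, so a level of H3.3 mRNA is the sum of both genes. Their coding sequences have 411 bases each and are the same at 316 of them (76.9%). Of the 95 differences, 81 fall on the third base of a codon, 14 on the first and 0 on the second. The first 150 coding bases, 5′ to 3′ on the transcript strand, carry 32 of these differences, which are in capitals.
H3f3a: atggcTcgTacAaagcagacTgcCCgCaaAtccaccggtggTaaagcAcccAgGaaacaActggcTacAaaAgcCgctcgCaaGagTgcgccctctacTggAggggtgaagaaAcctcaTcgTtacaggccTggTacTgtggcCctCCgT
H3f3b: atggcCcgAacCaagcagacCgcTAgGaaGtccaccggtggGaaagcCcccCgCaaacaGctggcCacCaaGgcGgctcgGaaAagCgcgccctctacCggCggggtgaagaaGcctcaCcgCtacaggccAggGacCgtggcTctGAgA

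Hist1h1c is shown because its transcript holds 2 kinds of histone mRNA ending. Replication-dependent histone genes end in a stem-loop without a poly(A) tail, and such an RNA is not expected to be captured by oligo(dT) primers. The stem-loop, in capitals below, begins 24 bases after the stop codon of Hist1h1c.
Hist1h1c: tccaaaaGGCTCTTTTCAGAGCCaccactc
The annotated transcript runs on for another 840 bases past it, and the polyadenylation signal AATAAA begins 26 bases before its end. These capitals, with any base allowed as the last of the loop, were searched on the transcript strand and were present in 36 of 55450 annotated genes (0.0649%), of which Hist1h1c was the only member. The matrix counts transcripts with a poly(A) tail, so any Hist1h1c RNA that ends at the stem-loop would be missing from the values below.

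In rods of all tags together, H3f3b and H3f3a had 3292 and 3116 UMIs, and only 27 and 30 of the 10027 genes with a UMI had more. Cbx3 had 489 UMIs, Hist1h1c 335, Casz1 197, Cbx1 107, Trim28 46, H1f0 27 and Cbx5 6. These are counts of 3′ ends and were not scaled by length. Every one of the 332 rods held a UMI of at least 1 member, and 328 held a UMI of an H3.3 gene.

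The HP1 genes bind methylated histone H3, Cbx1 and Cbx5 mainly in constitutive heterochromatin and Cbx3 also in active regions. Cbx3 had 286, 185 and 18 UMIs in rods of tags 1, 2 and 3, or 524, 559 and 329 CPM. It was present in 100 of 184 (54.3%), 58 of 128 (45.3%) and 5 of 20 rods (25%), so tag 3 was lowest by both measures and its Poisson interval (195 to 520 CPM) overlapped those of the other tags. The log2 ratio of Cbx3 in tag 2 to that in tag 1 was 0.09 (95% interval -0.18 to 0.36). Set against tag 1 and tag 2, tag 3 was at -0.63 (-1.45 to 0.02) and -0.73 (-1.55 to -0.06) on this scale. After each rod was thinned to 1200 UMIs the shares with Cbx3 were 40.7%, 31.1% and 26.3%.

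Cbx1 had 50, 53 and 4 UMIs, or 91.6, 160.1 and 73.1 CPM, in 21, 22 and 2 rods. Tag 2 was highest, with a log2 ratio to tag 1 of 0.80 (0.22 to 1.39). The shares of rods with Cbx1 had intervals that overlapped, at 11.4% (7.21 to 16.9) in tag 1 and 17.2% (11.1 to 24.9) in tag 2. Tag 3 could not be placed, since its interval of 19.9 to 187 CPM held the levels of both others. Cbx5 had 6 UMIs from 2 rods of tag 1 and 0 in the other tags. The exact intervals of these counts of 0 reached 11.1 CPM in tag 2 and 67.5 CPM in tag 3, so neither could be set apart from the 11.0 CPM of tag 1. Cbx3 gave 83.6% (79.3 to 87.4), 77.7% (71.9 to 82.9) and 81.8% (59.7 to 94.8) of the HP1 UMIs of tags 1, 2 and 3. UMIs of exactly 1 HP1 gene were found in 168 of 332 rods, of 2 in 21, of all 3 in 0 and of none in 143.

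Trim28 (KAP1) links zinc finger repressors to HP1 and to histone H3 lysine 9 methylation. Tag 1 held 22 UMIs from 10 rods (40.3 CPM), tag 2 held 24 from 6 rods (72.5 CPM), and tag 3 held 0, with an interval that reached 67.5 CPM. Of the 24 UMIs of tag 2, 10 came from 1 rod. Tag 2 was at a log2 ratio of 0.84 (-0.05 to 1.75) to tag 1. Neither this interval nor that of tag 3 against tag 2 left out equality.

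The linker histones bind the nucleosome where DNA enters and leaves it. Hist1h1c (H1.2) had 219, 107 and 9 UMIs, or 401, 323 and 165 CPM, and was present in 51 (27.7%), 35 (27.3%) and 3 rods (15%). Tag 3 was lowest by both measures. Its log2 ratio to tag 1 was -1.21 (-2.43 to -0.33) and to tag 2 -0.90 (-2.14 to 0.00), and that of tag 2 over tag 1 was -0.31 (-0.66 to 0.03). The 9 UMIs of tag 3 came from 3 rods. Leaving out the largest Hist1h1c count in each tag took 5 of 9 UMIs from tag 3 and 17 of 219 from tag 1. With tag totals kept, the ratio of tag 3 over tag 1 was then -2.17. The same step weighs more on a tag with few rods, and moved the median of all genes to -0.25 for this pair. When each rod counted once, whatever its number of UMIs, the Hist1h1c ratio was -0.49. H1f0 (H1.0), the linker histone that accumulates in cells that have left the cell cycle, had 19, 8 and 0 UMIs, in 5 rods each of tags 1 and 2. The 2 tags differed by a log2 ratio of -0.48 (-1.93 to 0.73), tag 2 to tag 1, and the interval of tag 3, up to 67.5 CPM, held the 34.8 and 24.2 CPM of the other tags. Of the other 8 linker histone genes in the wider list, only Hist1h1e (25 UMIs in 5 rods) and Hist1h1d (7 UMIs in 3 rods) had any UMI, so Hist1h1c held most linker histone UMIs of these rods.

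Casz1 had 132, 60 and 5 UMIs, or 242, 181 and 91.4 CPM, in 50 (27.2%), 27 (21.1%) and 2 rods (10.0%). Tag 1 was highest and tag 3 lowest by both measures, but the Poisson interval of each tag overlapped that of the next. Relative to tag 1, the log2 ratio was -0.41 (-0.88 to 0.03) in tag 2 and -1.27 (-3.05 to -0.14) in tag 3, where 4 of the 5 UMIs of tag 3 came from 1 rod. Leaving out the largest Casz1 count in each tag took 4 of 5 UMIs from tag 3 and 8 of 132 from tag 1. The ratio of tag 3 over tag 1 was then -3.06, where the median of all genes was -0.25.

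The H3.3 genes were present in most rods of every tag, and in tag 3 H3f3a was above and H3f3b below its level in the other tags. H3f3a had 1916, 950 and 250 UMIs, or 3511 (3356 to 3672), 2870 (2690 to 3058) and 4572 CPM (4023 to 5175), in 179 of 184, 119 of 128 and 20 of 20 rods. Tag 3 was highest and tag 2 lowest, and none of the intervals overlapped. H3f3b had 2051, 1116 and 125 UMIs, or 3758 (3597 to 3925), 3371 (3176 to 3575) and 2286 CPM (1903 to 2724), in 159, 114 and 15 rods, with tag 3 lowest and again no overlap. The log2 ratios for tag 3 over tag 1 were 0.38 (0.18 to 0.57) for H3f3a and -0.71 (-0.99 to -0.46) for H3f3b. Against tag 2, tag 3 had ratios of 0.67 (0.47 to 0.87) and -0.56 (-0.84 to -0.29). Tag 2 against tag 1 gave ratios below 0 for both genes, of -0.29 (-0.40 to -0.18) and -0.16 (-0.26 to -0.05).

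As a share of all H3.3 UMIs, which does not depend on how the tags were scaled, H3f3b gave 51.7% (50.1 to 53.3) in tag 1, 54.0% (51.8 to 56.2) in tag 2 and 33.3% (28.6 to 38.4) in tag 3. Tag 3 lay below both other tags, whose intervals overlapped. In tag 3 the share was 32.8% when the largest count of each gene in 1 rod was left out. Among rods with at least 5 H3.3 UMIs, the median share of H3f3b was 51.3% in 174 rods of tag 1, 53.4% in 110 of tag 2 and 22.2% in 19 of tag 3, with quartiles of 33.3% and 66.7%, 38.5% and 68.0%, and 9.43% and 54.2%. H3f3a outnumbered H3f3b in 86 of 184 (46.7%), 53 of 128 (41.4%) and 12 of 20 rods (60%, interval 36.1 to 80.9), so the count of rods did not separate tag 3 from tag 1 beyond counting error. The directions depended on the measure. With 1 count per gene and rod, which cannot vary much for genes present in most rods, tag 2 to tag 1 gave 0.15 for H3f3a and 0.26 for H3f3b, and tag 3 to tag 1 gave 0.02 for H3f3b. Under a strict tag call, which left 50, 23 and 3 rods, H3f3a was at 0.08 for tag 2 to tag 1 and H3f3b at 0.26 for tag 3 to tag 2. The share of tag 3 rested on few cells. It was 38.6% without a filter on cells, 42.5% over all filtered cells regardless of type and 53.2% in the 3 rods left by a strict tag call.

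**Figure D1:**
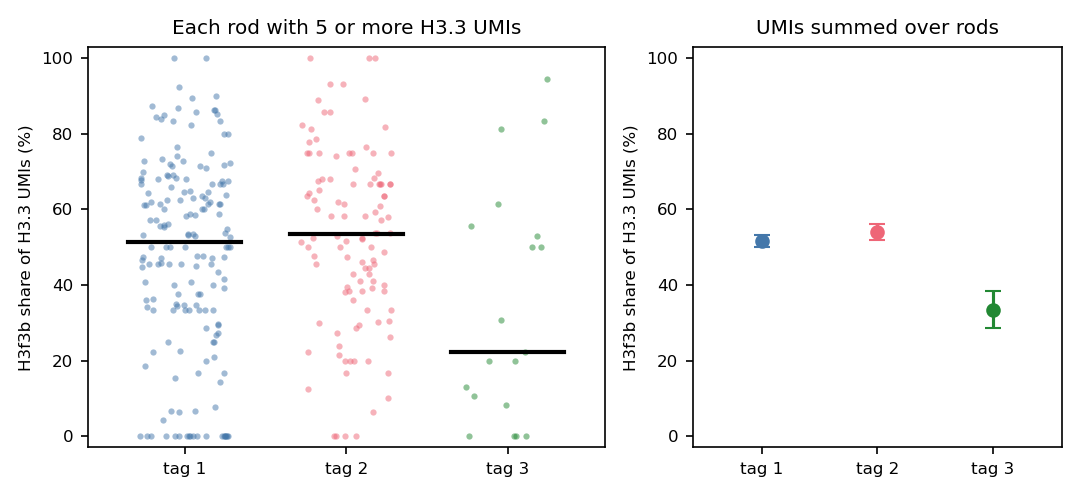
H3f3b as a share of the UMIs of H3f3a and H3f3b together (y axis, percent) in rods of the 3 tags (x axis). On the left each point is 1 rod with at least 5 such UMIs and the bar is the median, which is 51.3%, 53.4% and 22.2%, and on the right points are UMIs summed over rods with exact Clopper-Pearson 95% intervals, where tag 3 (33.3%) lies below tag 1 (51.7%) and tag 2 (54.0%).

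**Figure D2:**
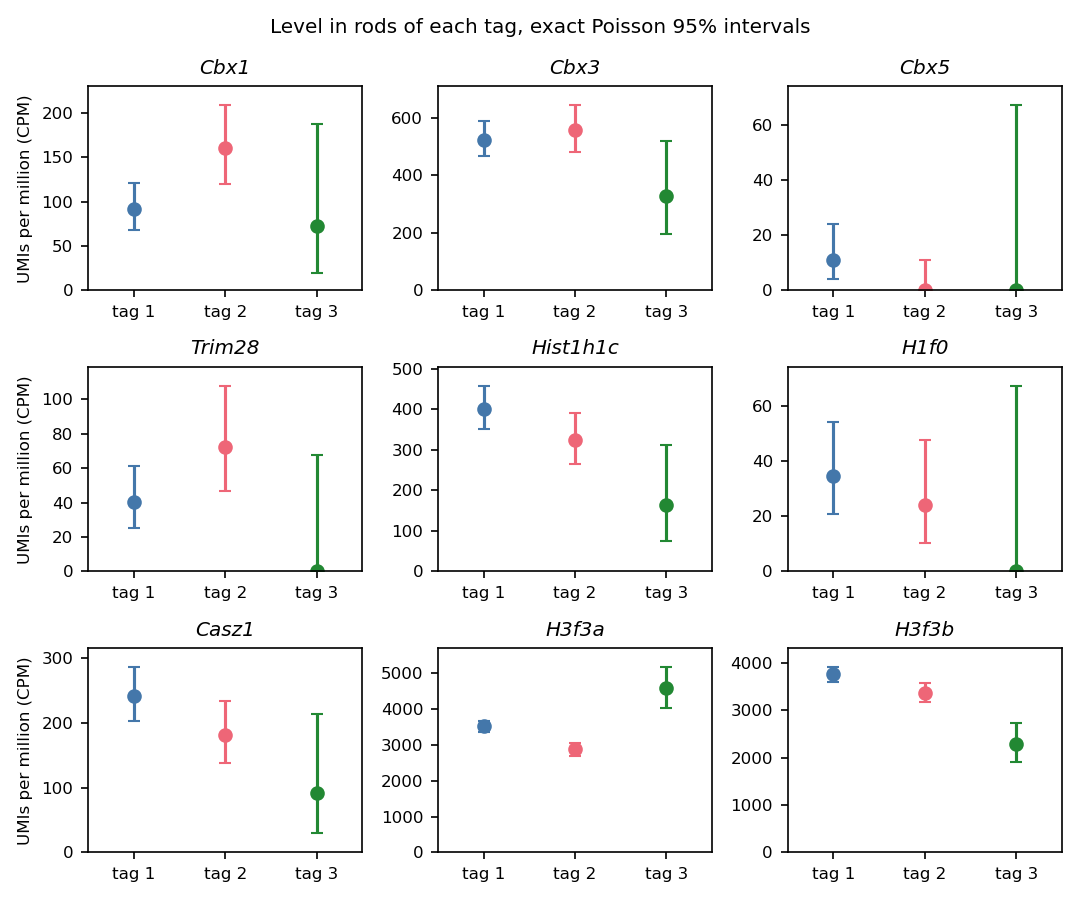
Level of each member in rods of tags 1, 2 and 3 (y axis, CPM, each axis from 0), with exact Poisson 95% intervals for counting error. The intervals of H3f3a and H3f3b do not overlap between tags, and the points of Cbx5, Trim28 and H1f0 at 0 in tag 3 have intervals that reach 67.5 CPM.

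**Figure D3:**
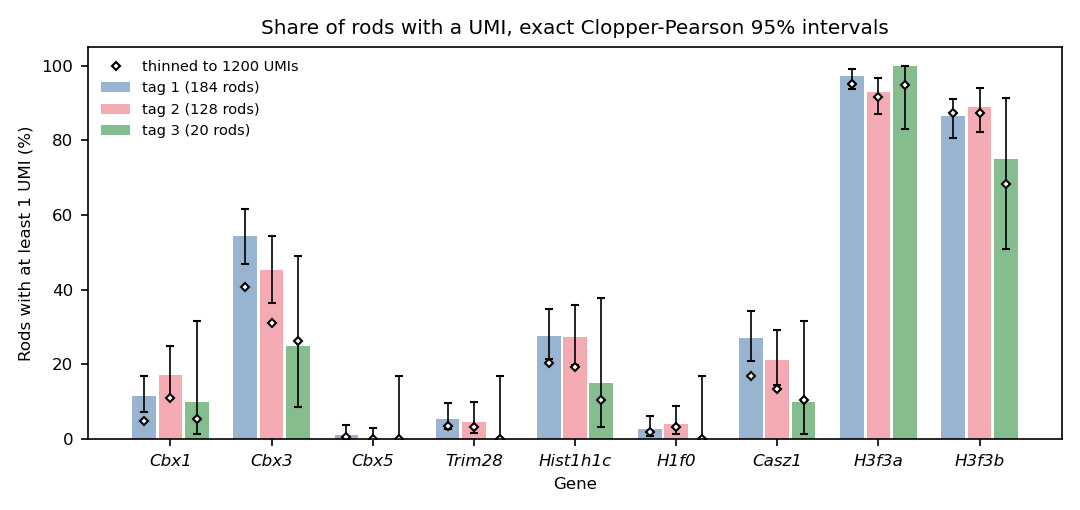
Share of rods with at least 1 UMI of each member (y axis, percent) in tags 1, 2 and 3, as bars with exact Clopper-Pearson 95% intervals and as diamonds after each rod was thinned to 1200 UMIs. H3f3a (93.0% to 100%) and H3f3b (75% to 89.1%) are present in most rods of every tag, and Cbx3 is next, between 25% and 54.3%.

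The members were then set against all genes. A gene was counted when at least 20 UMIs were expected in both tags, and was past 2-fold at an absolute log2 ratio of 1 or more. For tag 2 over tag 1, 6 members were counted (Cbx1, Cbx3, Hist1h1c, Casz1, H3f3a and H3f3b) and 0 were past 2-fold, where 12.9% of the 2182 genes counted were. Their median log2 ratio was -0.22, beside -0.06 over all genes, and 2 of 6 were above 0, where 979 of the 2182 genes were. For tag 3 over tag 1, 4 members were counted (Cbx3, Hist1h1c, H3f3a and H3f3b) and 1, Hist1h1c, was past 2-fold, where 10.6% of 386 genes were, and the medians were -0.67 and 0.08. For tag 3 over tag 2, 3 members were counted (Cbx3, H3f3a and H3f3b) and 0 were past 2-fold, where 12.2% of 370 genes were, and the medians were -0.56 and 0.08. The comparisons share tags, so their values are not independent. With so few members counted, their shares past 2-fold cannot be told from those of all genes.

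**Figure D4:**
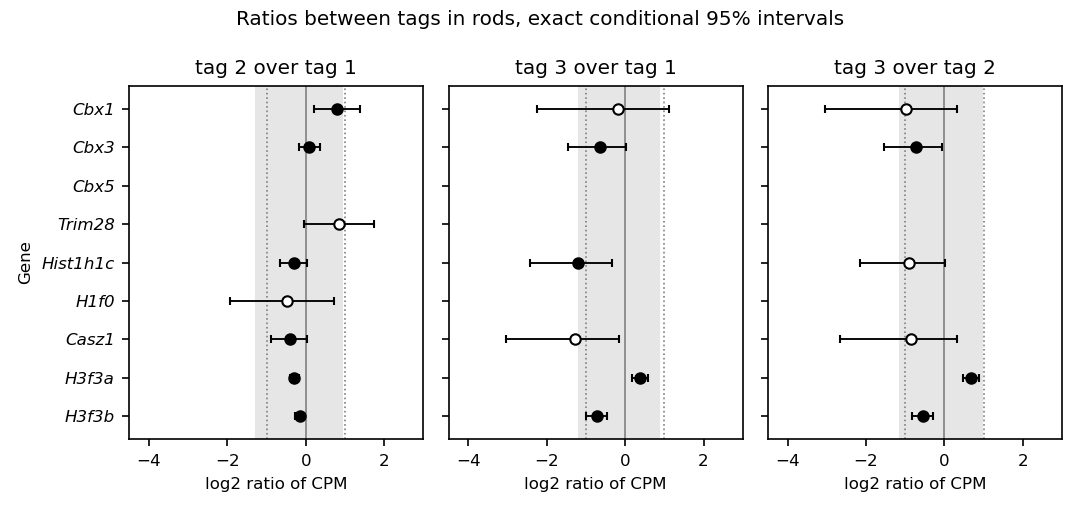
Log2 ratio of CPM (x axis) of each member (y axis) in rods for the 3 pairs of tags, with exact conditional 95% intervals; filled points had at least 20 expected UMIs in both tags, open points had fewer, and members at 0 UMIs in a tag are not drawn. The grey band holds the central 90% of all genes counted, dotted lines mark 2-fold, and of the filled points only Hist1h1c in tag 3 over tag 1 (-1.21) is past them.

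A wider list of 142 chromatin genes in the matrix, with the members left out, was read in the same way. Of 41 counted for tag 2 over tag 1, 25 were above 0 and 16 below, with a median of 0.07. Over all genes, 979 of 2182 were above 0, with a median of -0.06. Past 2-fold were 12.9% of all genes and, of the list, 1 (2.44%). This was Ctcf, the insulator protein that anchors chromatin loops, with 68 UMIs from 20 rods in tag 1 and 16 from 5 in tag 2, a log2 ratio of -1.33 (-2.25 to -0.57). Of the 68 UMIs, 21 came from 1 rod. Between tags 3 and 1, 9 were counted, 4 above 0 and 5 below, with a median of -0.30. Between tags 3 and 2, 7 were counted, 1 above 0 and 6 below, with a median of -0.21. In either, 0 of the list were past 2-fold, beside 10.6% and 12.2% of all genes. Over all genes, 211 of 386 and 208 of 370 were above 0, with medians of 0.08 and 0.08. By group, 10 histone chaperones were counted for tag 2 over tag 1 with a median of 0.09, 12 HMG, cohesin and CTCF genes with 0.07, 7 core histone variants with 0.01, 3 lamina tethers with 0.30, 3 Polycomb genes with -0.37, 3 DNA methylation genes with 0.15 and 2 NuRD genes with 0.53. Of the 20 genes for HP1 partners and histone H3 lysine 9 methylation, 1 was counted, at -0.14.

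The same list shows which chromatin genes were detected in rods at all. The genes named from it here were picked after their levels were seen. The genes listed for HP1 partners and histone H3 lysine 9 methylation were low, with 2 of 20 (Chaf1a and Chaf1b) at 0. Mphosph8 was highest of them at 82 UMIs, which is below Cbx1. Among the H3.3 and H2A chaperones all 18 had UMIs, led by Anp32e (689 UMIs in 169 rods) and Anp32a (647 in 183). Atrx, part of the complex that deposits H3.3 in heterochromatin, had 134 UMIs in 37 rods. Hmgn1, a nucleosome-binding protein of open chromatin, had 5427 UMIs in 320 rods, more than either H3.3 gene. Hist1h2bc, another gene of the replication-dependent histone clusters, had 1109 UMIs in 222 rods.

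UMIs of these genes came in groups within cells. Hist1h1c had 4.29 UMIs per rod that held any in tag 1, although only 27.7% of the rods held one, and Cbx3 had 2.86, Casz1 2.64, Trim28 2.20 and Cbx1 2.38. Of the 51 rods of tag 1 with Hist1h1c, 8 had exactly 1 UMI. Intervals that treat UMIs as independent are therefore too narrow, most of all where few rods hold the gene.

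The members were next compared between rods and the other barcodes of the pool, over all 834 barcodes and without the limits. These classes came from 1 run, and were named from markers after clustering without the members. They were rod-like (678), Müller glia-like (91), bipolar-like (38), microglia-like (17) and cone-like (10). At a clustering resolution of 0.5 no cluster was named Müller glia-like, and 129 barcodes formed 1 cluster named bipolar-like. The split between Müller glia-like and bipolar-like barcodes therefore depends on the resolution, as do class orders that rest on it. Of 13 Müller glia markers, 4 counted as detected in the class of that name. Only 7 of its 91 barcodes passed the limits. In the Müller glia-like barcodes 54.5% of UMIs were mitochondrial and 82 of 91 had no tag, against 15.8% in rods, so levels in this comparison are CPM of non-mitochondrial UMIs unless stated. As a gauge of free rod RNA, Gnat1, the rod transducin subunit, was at 6813 in rods, 981 in Müller glia-like, 249 in cone-like, 47.0 in microglia-like and 31.5 in bipolar-like barcodes. For genes that most cell types express no class can serve as a blank.

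Of the 9 members, 6 were higher in rods than in the 156 other barcodes together. These included H1f0, whose log2 ratio of the other barcodes over rods was -0.19 (-1.07 to 0.55). Without the barcode that held 25 of its 77 UMIs in rods, H1f0 was at 32.3 in rods, below the 41.0 of the other barcodes. With at least 20 expected UMIs on both sides, 7 members could be read against 3165 genes. Of these 7, 5 (Cbx3, Hist1h1c, Casz1, H3f3a and H3f3b) were higher in rods, where 54.7% of all genes were, and the intervals of the same 5 left out equality, where 35% of all genes were higher in rods by this measure and 28% lower. Cbx5, with fewer UMIs, was lower in rods, with a log2 ratio of the other barcodes over rods of 2.38 (1.61 to 3.18). Hist1h1c, a linker histone, was higher in rods than in each other class. It was at 405 (375 to 438) in rods, 90.5 in bipolar-like, 58.6 in Müller glia-like and 35.6 in cone-like barcodes, from 653, 23, 4 and 1 UMIs, and at 0 in microglia-like ones, where the interval of the log2 ratio to rods ended at -2.81. Rods did not overlap the next class, and the classes below them could not be ordered. After thinning, 19.0% of 588 rods and 5.71% of 35 bipolar-like barcodes had a UMI.

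Casz1 was at 348 (319 to 378) in rods, and at 301 without the barcode that held most of its UMIs. It was at 3.93 in bipolar-like barcodes (1 UMI) and at 0 in microglia-like ones, where the interval of the log2 ratio to rods ended at -2.58. The levels of 285 (123 to 561) in cone-like and 102 in Müller glia-like barcodes rested on 1 barcode each. It held 6 of 8 UMIs in the cone-like class, which was at 76.4 without it, and all 7 in the Müller glia-like class. Cone-like barcodes could be set apart from neither rods nor Müller glia-like barcodes.

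H3f3a was at 3482 (3391 to 3574) in rods, above Müller glia-like (2709), cone-like (2029), bipolar-like (1975) and microglia-like barcodes (815). Its neighbours in this order differed beyond counting error at both ends, rods from Müller glia-like and bipolar-like from microglia-like, and not in between. H3f3b was flatter, at 3824 in rods, 3382 in cone-like, 3294 in Müller glia-like, 2664 in microglia-like and 2577 in bipolar-like barcodes, where only Müller glia-like and microglia-like neighbours differed beyond counting error. H3f3b therefore gave 76.6% (70.4 to 82.0) of H3.3 UMIs in microglia-like barcodes, 62.5% (54.3 to 70.2) in cone-like, 56.6% in bipolar-like, 54.9% in Müller glia-like and 52.3% (51.4 to 53.3) in rod-like ones. In the microglia-like class 1 barcode held 66 of 170 UMIs of H3f3b, and 1 held 21 of 52 of H3f3a. Without its top barcode, microglia-like H3f3b was at 2224 (1817 to 2695), below the bipolar-like level. In the cone-like class 34 of 95 UMIs of H3f3b came from 1 barcode. The share of 33.3% in rods of tag 3 was below that of every class.

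The HP1 genes differed in order between classes. Cbx3 was at 513 in rods, 469 in Müller glia-like, 463 in cone-like, 256 in bipolar-like and 125 in microglia-like barcodes, and no neighbours in this order differed beyond counting error, though rods exceeded bipolar-like barcodes, with a log2 ratio of bipolar-like over rods of -0.99 (-1.39 to -0.64). Cbx1 was at 240 in bipolar-like, 235 in microglia-like, 158 in rod-like, 43.9 in Müller glia-like and 0 in cone-like barcodes. In the microglia-like class 12 of 15 UMIs came from 1 barcode, without which the level was 54.5, and in the bipolar-like class 18 of 61 did, without which it was 171 (124 to 231), an interval that holds the level of rods. Cbx5 was at 118 in bipolar-like barcodes and 16.1 in rods, from 30 and 26 UMIs, a log2 ratio of 2.87 (2.06 to 3.69). Without the top barcode Cbx5 was at 93.8 in bipolar-like barcodes and 10.5 in rods. Cbx3 gave 86.5% (71.2 to 95.5) of the HP1 UMIs in Müller glia-like, 81.3% (54.4 to 96.0) in cone-like, 74.6% (71.9 to 77.2) in rod-like, 41.7% (33.8 to 49.8) in bipolar-like and 34.8% (16.4 to 57.3) in microglia-like barcodes. The bipolar-like barcodes were deeper, with a median of 8994 UMIs against 2424.5 in rods. After thinning to 1200 UMIs Cbx3 was present in 30.8% of rods and 25.7% of bipolar-like barcodes, Cbx1 in 7.65% and 8.57%, and Cbx5 in 0.340% and 8.57%.

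Trim28 and H1f0 did not separate the classes. Trim28 was at 70.8 in bipolar-like, 58.6 in Müller glia-like and 46.6 in rod-like barcodes, with 75 UMIs in rods and at most 18 elsewhere. H1f0 was at 47.8 in rods from 77 UMIs, of which 25 came from 1 barcode above the mitochondrial limit, at 102 in Müller glia-like (7 UMIs) and 107 in cone-like barcodes (3 UMIs). No neighbours differed beyond counting error for either gene.

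**Figure D5:**
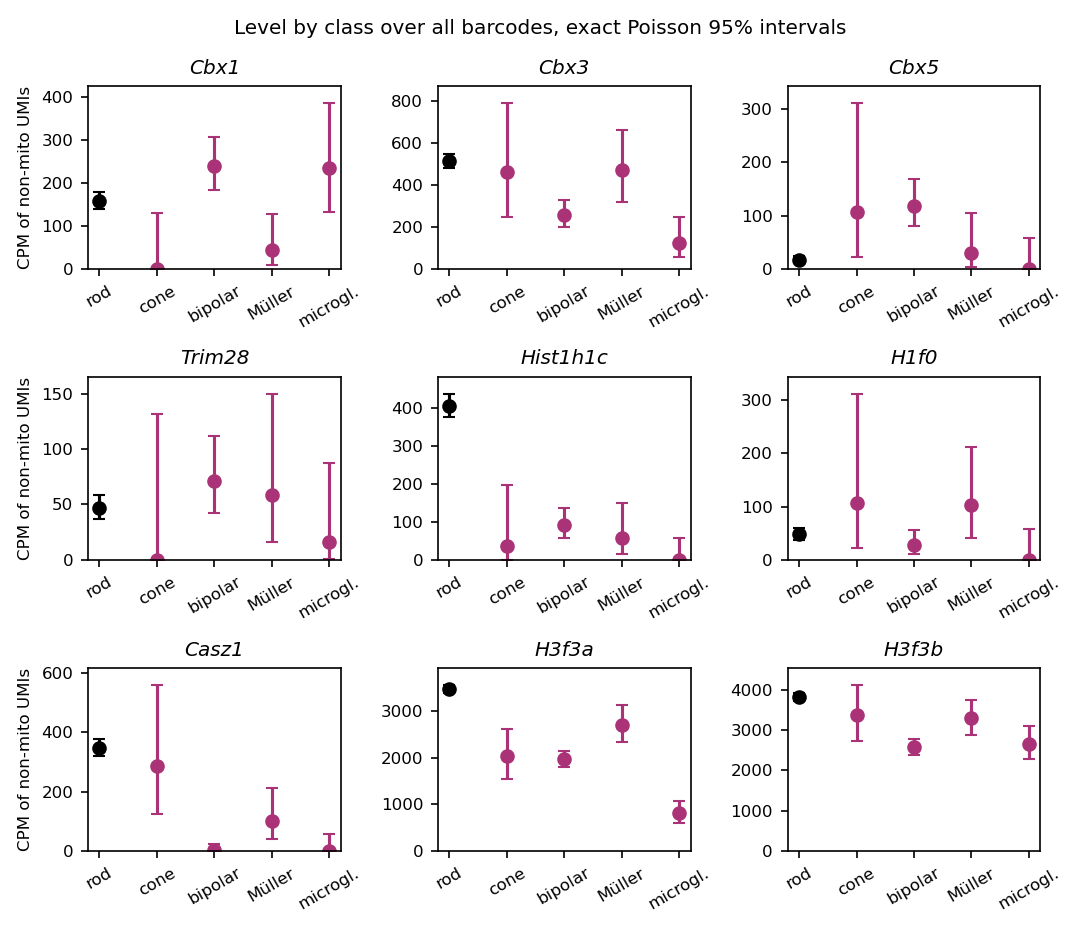
Level of each member in the 5 classes over all barcodes (y axis, CPM of non-mitochondrial UMIs, each axis from 0), with exact Poisson 95% intervals; rods are black and the other classes purple. Hist1h1c is higher in rods (405) than in every other class, the cone-like level of Casz1 (285) has an interval of 123 to 561, and Cbx5 is higher in bipolar-like barcodes (118) than in rods (16.1).

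Rods differed among themselves in depth and mitochondrial share, and the members followed this in part. The 279 rods above the mitochondrial limit and the 372 that passed all limits had 3551 and 3846 non-mitochondrial CPM of H3f3a, 3865 and 3963 of H3f3b, 363 and 427 of Hist1h1c, 496 and 581 of Cbx3 and 263 and 239 of Casz1. The intervals of the ratios left out equality for Cbx3 (log2 -0.23), for H3f3a (-0.11) and for H1f0 (1.29, 0.58 to 2.00), where 25 of 39 UMIs came from 1 barcode.

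A cluster of 17 rods led by genes that included the nuclear RNA Malat1 held 15 barcodes of tag 1, 2 of tag 2 and 0 of tag 3, with a median of 8795 UMIs. It made up 2.51% of rods and held 42.1% of their Casz1 UMIs, 236 in 13 barcodes, at 825 CPM of all UMIs against 199 in the other 661 rods. One barcode of 85822 UMIs carried 99 of them, and without it the level was 685 CPM. The same cluster held 18 of the 26 Cbx5 UMIs of rods, 10 of them in that barcode, and 852 UMIs of H3f3b against 506 of H3f3a. Trim28 was lower there, with 4 UMIs and a log2 ratio of -1.48 (-3.56 to -0.22), and Hist1h1c was at 336 against 342 CPM. Only 8 of the 17 were among the 332 rods compared between tags. Leaving the cluster out gave log2 ratios, tag 2 to tag 1, of -0.32 for Casz1 and 0.71 for Cbx1.

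Which genes had the pattern most like that of a member was asked over the 10 groups of class and tag with at least 20000 UMIs, among 1670 genes with at least 200 UMIs. These groups share 1 library and differ in depth, so the correlations are descriptions only. For Hist1h1c the first was Fam126b (Pearson r = 0.98), and the genes were for Casz1 Uckl1os (0.99) and Drd4 (0.99), for H3f3a Aldoa (0.96) and Adipor1 (0.94), and for H3f3b Amz2 (0.92) and Thoc2 (0.92). For Cbx3 they were Rbx1 (0.93) and Ccndbp1 (0.91), and for Cbx1 Rnaseh2c (0.97) and Map2k2 (0.94). Other genes came close, so those named are not particular to a member. Of the 1670 genes, r was above 0.9 for 82 with Casz1, 28 with Hist1h1c and 16 with H3f3a. It was above 0.9 for 7 with H3f3b, 6 with Cbx3 and 5 with Cbx1. Cbx5, Trim28 and H1f0 had 61, 98 and 94 UMIs over all barcodes, under the minimum of 100 set for this comparison.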

How the data were processed

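One pool of sorted mouse retinal cells gave an expression library and a tag library on the 10x Genomics platform. The deposited counts are UMIs per gene and barcode and tag counts per barcode. Per the authors' methods they were made with Cell Ranger 6.1.2 on mm10, while the matrix header names version 3.1.0, and the MULTI-seq workflow gave the authors' tag call for each barcode, which was used as deposited. The submitters' processing notes also name Scanpy 1.9.1. The annotation release and the way strand was counted are not given in the sources used here.

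Barcodes were clustered with scanpy 1.11.5 and leidenalg 0.10.2 (2000 variable genes, 30 components, 15 neighbours, resolution 1). The 9 members, the wider chromatin list, Malat1, mitochondrial and haemoglobin genes did not enter it. Names came from fixed markers. Rods compared between tags had 200 to 2500 genes and at most 18% mitochondrial UMIs and were not called doublets by Scrublet, which marked 29 of the 409 barcodes within these limits. UMIs were summed per tag and divided by the tag's total to give CPM. Log2 ratios had 0.5 UMIs added to each sum. Intervals are exact at 95% (Poisson for CPM, Clopper-Pearson for shares, conditional binomial for ratios, scipy 1.17.1) and cover counting error only, and a count of 0 is bounded by the upper end of its interval. With 1 pool per tag no p-value can be given. Shares of cells were also computed after each cell was thinned to 1200 UMIs, which left out 17, 9 and 1 rods of tags 1, 2 and 3. Scripts were tested on simulated counts.

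Named were all 9 members, genes of the wider list past 2-fold (20 or more UMIs expected in each tag, and present in 5 or more rods of the higher one), and for each member with at least 100 UMIs the 2 genes with the highest Pearson r of log2(CPM + 10), of which 1 is not reported here. The members and lists were chosen with earlier results of these data known. Of 143 listed genes 142 were in the matrix. Positions and sequences came from GENCODE vM21 on GRCm38, the build of the matrix. For the 15 alternatives, see the closing section. CPM without mitochondrial UMIs, naming rods after filtering, leaving out the Malat1-led cluster and leaving out the barcode with most UMIs of a gene in a class were added after the data were seen.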

Additional observations from a re-analysis of the deposited data

How the results depend on the processing

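Each tag was 1 pool, so all values depend on a single set of cells per tag. The count of members past 2-fold for tag 2 over tag 1 was 0 of 6. It was 2 of 7 (Trim28 and Casz1) without a filter on cells, 1 of 6 (Cbx1) with doublets kept and 1 of 7 (Cbx1) for the mean of CPM over cells. For tag 3 over tag 1 it was 1 of 4 (Hist1h1c). It was 2 of 5 without a filter on cells and at 10 expected UMIs (Hist1h1c and Casz1 each time). Over all filtered cells it was 2 of 4 (Cbx3 and Hist1h1c). Without the top rod of each gene it was 2 of 3 (Cbx3 and H3f3b). It was 0 of 2 under the strict tag call and at 50 expected UMIs. Without the top rod means that the gene's largest count in each tag was left out and the tag's total was kept. For tag 3 over tag 2 the count of members was 0 of 3. It was 1 of 4 without a filter on cells and with doublets kept (Hist1h1c each time). Over all filtered cells and without the top rod it was 1 of 3 (Cbx3 each time). In the wider list the count for tag 2 over tag 1 was 1 of 41 (Ctcf). It was 12 of 74 without a filter on cells, 11 of 65 at 10 expected UMIs, 6 of 55 over all filtered cells and 3 of 35 without the top rod. It was 2 of 45 with doublets kept, 2 of 43 for the mean of CPM and 2 of 11 under the strict tag call. With centring it was 2 of 41, for CPM without mitochondrial UMIs 2 of 40 and with rods named after filtering 2 of 42. It was 0 of 15 with 1 count per gene and cell and 0 of 21 at 50 expected UMIs. The share of all genes past 2-fold under these alternatives is not given here. In the wider list the count for tag 3 over tag 1 was 0 of 9, and 2 of 8 without the top rod. That for tag 3 over tag 2 was 0 of 7, and 3 of 7 without the top rod, 2 of 18 at 10 expected UMIs and 1 of 11 over all filtered cells. The cause was not tested, beyond the fewer or more genes counted under the filters. Of the members' log2 ratios under all alternatives, 222 stayed within the counting interval of the reported value and 29 moved outside it. Of all these values, 16 had the opposite sign of the reported one. For H3f3a and H3f3b, whose reported intervals left out equality, this was seen with 1 count per gene and cell (tag 2 over tag 1, 0.15 and 0.26, and H3f3b for tag 3 over tag 1, 0.02) and under the strict tag call (H3f3a for tag 2 over tag 1, 0.08, and H3f3b for tag 3 over tag 2, 0.26). The others were ratios of Cbx1, Cbx3, Hist1h1c and H1f0 whose reported intervals included equality. The Hist1h1c ratio of tag 3 over tag 1 ranged from -2.17 to -0.49, and the Cbx1 ratio of tag 2 over tag 1 from 0.15 to 1.13. The median of all genes shifted to -0.18 (tag 2 over tag 1) without a filter on cells, to -0.10, -0.25 and -0.26 for the 3 pairs without the top rod of each gene, and to -0.29 (tag 3 over tag 2) under the strict tag call. With 1 count per gene and cell no gene reached 20 expected UMIs for tag 3 over tag 1. The number of members higher in rods than in other barcodes was 6 under the 4 alternatives tried for it. This number sets rods against all other barcodes together, so it does not test the split among the other classes. In the reported count the 6 included H1f0, whose interval held equality. No paired analysis was possible because each tag is 1 pool and the 2 libraries are the expression and tag libraries of the same cells.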
